A study of Mus musculus with 8 samples.

Results

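The let-7 microRNAs were examined in mouse sperm small RNA through every listed fragment that lay on 9 let-7 hairpins: Mirlet7a-1, Mirlet7b, Mirlet7c-1, Mirlet7c-2, Mirlet7d, Mirlet7e, Mirlet7f-1, Mirlet7g and Mirlet7i. The deposited tables list short RNA fragments under piRNA names (piR-mmu- and a number), and a name was taken as a let-7 name when any of its rows lay on one of these hairpins, whatever its values. The rule gave 28 of 13450 names (36 loci) in the table that sets microcystin-LR (MC-LR) against control, and 59 of 17375 names (77 loci) in the table that sets an shRNA against Hsp90aa1 beside a negative-control shRNA. In all 63 names of 20210 were let-7 names in either table and 24 were in both. They carried piRNA names, but nearly all had let-7 sequences: 27 of 28 and 53 of 59 lay on the 5p arm of a hairpin, and 1 and 5 on a 3p arm. The remaining 1 name of the shRNA table, piR-mmu-9412992 (chr13:48538163-48538188, minus strand), ran past the edge of the Mirlet7a-1 hairpin (chr13:48538179-48538272). It met the mature 3p sequence only at position 48538188.

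let-7 is an old and highly conserved microRNA family. Each hairpin is cut by Drosha and Dicer into a short duplex, usually the 5p strand is loaded into an Argonaute protein, and bases 2 to 8 of that strand, the seed, pair with target messenger RNAs and repress them. The family is abundant in differentiated tissues, is held back in stem cells by LIN28, and is known for repressing Hmga2, Lin28 and Ras genes; piRNAs, by contrast, are bound by PIWI proteins and are made without Dicer.

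All sperm came from Balb/c mice at 8 postnatal months, with 2 libraries, lettered A and B, in each of 4 groups. The control and MC-LR groups differ in exposure to MC-LR, a cyanobacterial toxin that inhibits the phosphatases PP1 and PP2A; the labels give no dose or duration. The other groups carry a negative-control shRNA or an shRNA against Hsp90aa1, which encodes the chaperone HSP90 alpha; the labels name neither the way the shRNA was delivered nor the cells that received it, and no messenger RNA was measured here that could check the knockdown. The labels do not say whether libraries A and B are from different mice. The p-values here set the difference between groups against the spread of libraries within a group, and that spread may be only technical.

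The mature 5p sequences of these hairpins, from RefSeq on GRCm38.p6, are shown because the results turn on their single-base differences and on where their 3′ ends lie. Capitals mark the seed.
let-7a: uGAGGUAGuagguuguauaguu
let-7b: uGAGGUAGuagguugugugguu
let-7c: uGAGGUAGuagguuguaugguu
let-7d: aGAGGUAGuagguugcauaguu
let-7e: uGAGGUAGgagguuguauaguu
let-7f: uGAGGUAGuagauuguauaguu
let-7g: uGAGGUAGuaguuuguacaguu
let-7i: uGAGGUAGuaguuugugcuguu
All 8 share the seed GAGGUAG. Counted from 1 at the 5′ end, let-7c differs from let-7a only by A19G, let-7f only by G12A and let-7e only by U9G, and let-7b differs from let-7c by G17A. let-7i differs from let-7g by A17G and A19U.

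A listed name was not always a single sequence. The 22-nt name piR-mmu-10842452, also listed on Mirlet7a-2 and Mirlet7f-2, stood on the mature let-7g locus (chr9:106178846-106178867, plus strand, mm10), the let-7a locus (chr13:48538239-48538260, minus strand) and the let-7f locus (chr13:48537889-48537910, minus strand), with a value of its own at each of these 3. The 22-nt name piR-mmu-10879204 stood in the same way on both let-7c hairpins (chr15:85706616-85706637 and chr16:77599672-77599693, plus strand) and on let-7e (chr17:17830366-17830387, plus strand). At equal length up to 23 nt let-7a and let-7c held nearly the same values wherever both are listed, within 1.49% of each other: at 22 nt in negative-control shRNA A, 1455 RPM (reads relative to the library total) stood on let-7a and 1454 RPM on let-7c. At these lengths the levels of let-7a and let-7c cannot be told apart; at 24 and 25 nt, where values are low, they differed by up to 21.3% and 66.7%. At 22 nt in the shRNA table the values of let-7b, let-7d, let-7e, let-7f, let-7g and let-7i differed from each other and from those of let-7a.

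Both tables hold selected names. In the MC-LR table all 13450 names differ at least 1.5-fold between the group means at some locus, and for the shRNA 17371 of 17375 differ at least 2-fold, so a count of lower names is not independent evidence of direction. Library totals recovered from the RPM steps ran from 4960467 to 14634370 reads. The listed names made up 35.3% to 38.1% of the total in the controls, 11.7% to 12.5% under MC-LR, 27.8% to 32.5% in the negative-control shRNA libraries and 3.18% to 4.98% in those of the Hsp90aa1 shRNA. let-7 names held 29004 to 138452 reads per library in the MC-LR table and 11191 to 195804 in the shRNA table. In bulk RNA, fewer cells that carry let-7 and less let-7 per cell cannot be told apart.

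Under MC-LR, scaled to the library totals, 15 of the 28 let-7 names were lower, none was higher and 13 did not pass the test (limma, adjusted p under 0.05), while with TMM or DESeq2 scaling none was lower and 1 was higher. The background with limma is 73.1% of all 13271 tested names lower and 2.37% higher; with TMM factors it is 2.72% lower and 2.68% higher, and with DESeq2 3.98% and 3.22%. The median log2 fold change of the let-7 names was -0.85, against -1.17 for all tested names and -1.01 for the names on other microRNA hairpins, and 24 of the 28 lay above the median of all names. With edgeR on the recovered reads and library totals, 16 of 26 let-7 names were lower, against 82% of all names, and with each locus value taken apart in limma 19 of 34 were, against 72.9%. TMM and DESeq2 scale on the listed names alone, and these were selected for change. A decrease that most of them share is thus moved to near 0, and let-7 values in these scalings are relative to the other listed names. With TMM scaling, which centres the median of all names at 0.06, the let-7 median was 0.75. The groups did not overlap for 24 of the 28 names, against a background of 92.6% of all names lower without overlap. The share of let-7 names called was below the background on both counts. The count rests on single libraries, as does that of all names: it was 2 without MC-LR B (40.5% of all names lower), 5 without MC-LR A (39.6%) and 23 without control B (82.2%).

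The most abundant let-7 fragment of the MC-LR table was the 22-nt let-7c form, piR-mmu-10879204. Control A and B had 3966 and 2387 RPM, and MC-LR A and B had 2406 and 1929 RPM. MC-LR A reached just above control B, so the groups overlap, and the log2 fold change of -0.51 ± 0.36 (SE, n = 2 per group) did not pass (limma, adjusted p = 0.18); without control B it passed (adjusted p = 0.0061). The 21-nt let-7a form, piR-mmu-48723083 (chr13:48538240-48538260), had 798 and 460 RPM in the controls and 563 and 500 RPM under MC-LR. Both MC-LR values lay between those of the controls, with a log2 fold change of -0.19 ± 0.37 (SE, n = 2; limma, adjusted p = 0.61). With TMM factors the same name, at this let-7a locus, stood at 1.47 (edgeR, adjusted p = 0.040) and was the 1 let-7 name called higher. The name is also listed on Mirlet7a-2 and on let-7e. At let-7e it had 26.4 and 18.1 RPM in the controls and 10.6 and 10.1 RPM under MC-LR. There it was lower, with a log2 fold change of -1.02 (limma on each locus value, adjusted p = 0.026).

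On the log2(RPM + 1) scale let-7b had the 3 largest decreases among the let-7 names, whereas with TMM scaling none of its names passed. Its 22-nt mature form, piR-mmu-48715203 (chr15:85707325-85707346, plus strand), had 517 and 343 RPM in the controls and 218 and 178 RPM under MC-LR. Both MC-LR libraries lay below both controls, with a log2 fold change of -1.09 ± 0.35 (SE, n = 2; limma, adjusted p = 0.019); the call is lost without either MC-LR library (adjusted p = 0.077 without A and 0.15 without B). The 23-nt form piR-mmu-10903282 had 350 and 248 RPM against 117 and 110 RPM, a log2 fold change of -1.37 (limma, adjusted p = 0.0062). The 25-nt form piR-mmu-10891423 fell furthest of all let-7 names that passed: 23.8 and 22.8 RPM in the controls and 7.91 and 5.49 RPM under MC-LR, a log2 fold change of -1.68 ± 0.35 (SE, n = 2; limma, adjusted p = 0.0027). From 22 to 25 nt, the longer the let-7b fragment, the lower its level was under MC-LR relative to control.

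The other hairpins lay closer together. The most abundant let-7i name here was the 23-nt form piR-mmu-10872547, which is also listed on Mir7j. The controls had 611 and 441 RPM and the MC-LR libraries 260 and 239 RPM, without overlap, and it passed (log2 fold change -1.05; limma, adjusted p = 0.018). For let-7f the 23-nt form piR-mmu-33727897 had 528 and 377 RPM against 275 and 218 RPM and passed as well (log2 fold change -0.86; limma, adjusted p = 0.043). The 23-nt let-7g form piR-mmu-48729510 had 413 and 284 RPM in the controls and 186 and 216 RPM under MC-LR, and did not pass (log2 fold change -0.77; limma, adjusted p = 0.060). The groups of these 3 hairpins were separate in each case, and the differences between hairpins were not tested on this scale. Without either MC-LR library the let-7i and let-7f names no longer passed (adjusted p from 0.11 to 0.27), and the let-7f name also failed without control A (adjusted p = 0.065), while the let-7g name passed without control B (adjusted p = 0.0028). The 22-nt let-7d form piR-mmu-10884975 had 183 and 141 RPM against 90.4 and 93.6 RPM (limma, adjusted p = 0.051), and it passed without control B (adjusted p = 0.0064). let-7e, the rarest 5p sequence, had 79.7 and 54.2 RPM against 31.0 and 26.8 RPM at 22 nt, a log2 fold change of -1.16 in the fit that takes each locus value apart (limma, adjusted p = 0.015). The 3p strand of let-7d, piR-mmu-48836825, had 15.2 and 8.67 RPM against 6.40 and 8.38 RPM, and did not pass (limma, adjusted p = 0.15) unless control B was left out (adjusted p = 0.013). The forms of 22 nt of let-7a, let-7f, let-7g and let-7i have no listed name under MC-LR, so their change there was not tested. In the negative-control shRNA libraries they were the most abundant forms of their hairpins, with mean levels of 1941, 1905, 2777 and 1333 RPM. The MC-LR values of these hairpins thus come from other lengths, listed among names selected for change.

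**Figure D1:**
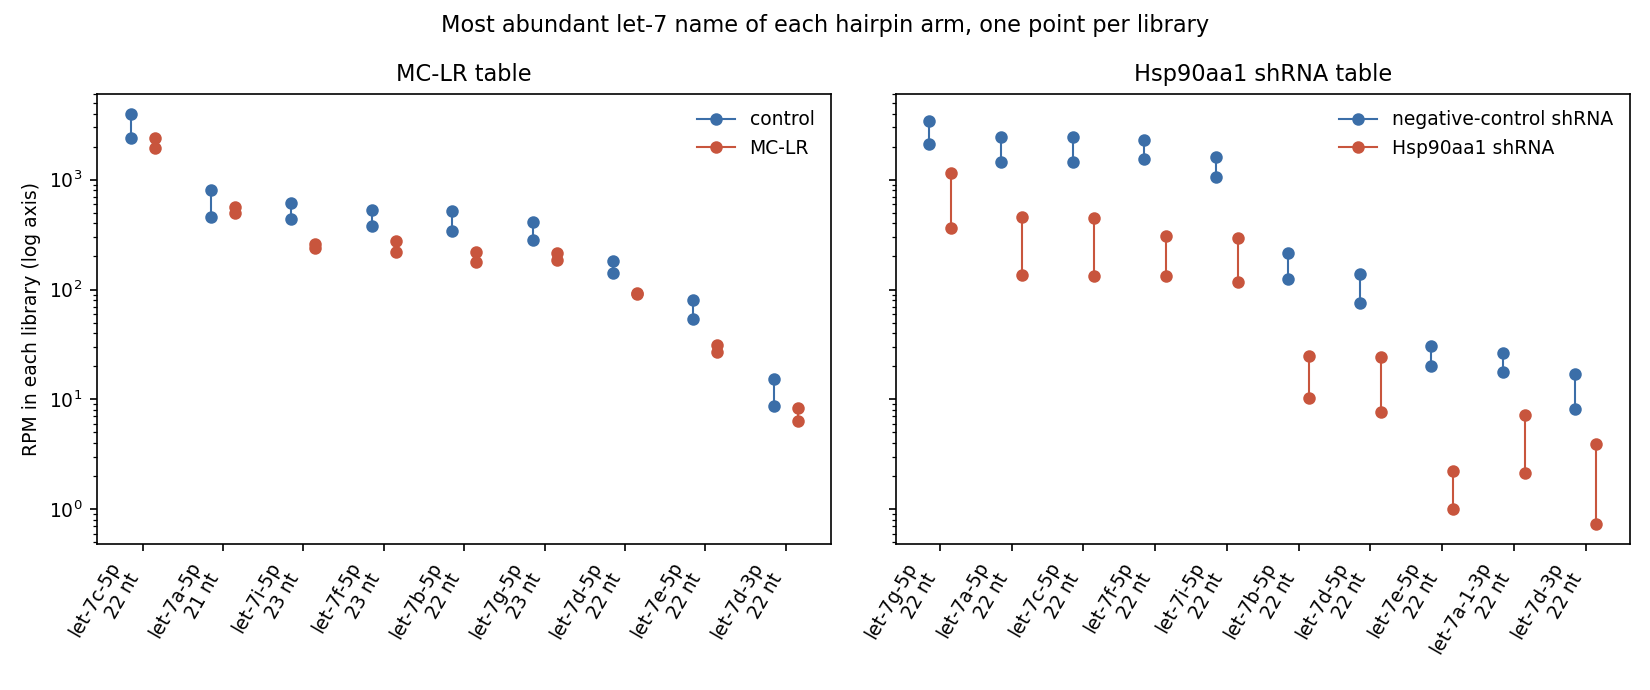
RPM (log axis) of the most abundant let-7 name of each hairpin arm in every library, with the MC-LR table on the left and the shRNA table on the right; each point is 1 library and a line joins the 2 libraries of a group. Per library total, only let-7c and let-7a overlap between control and MC-LR, and no name overlaps between the shRNA groups. TMM scaling, which sets let-7 against the other listed names, called no let-7 name lower in either comparison.

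With the Hsp90aa1 shRNA, scaled to the library totals, all 59 let-7 names were lower (limma, adjusted p under 0.05). With TMM or DESeq2 scaling, which set let-7 against the other listed names, none passed in either direction. Some names, such as piR-mmu-49749469 (group means 1.05 and 0.158 RPM), passed the filter of 1 RPM only through the negative-control shRNA group. Their lower calls are therefore no separate support. The background with limma is 99.5% of 16859 tested names lower and 0.219% higher, so the count says nothing particular to let-7; with TMM factors it is 0.091% lower and 0.225% higher, and with DESeq2 2.71% and 0.672%. No let-7 name overlapped between the groups, against a background of 99.8% of all names lower without overlap. The median log2 fold change of the let-7 names was -2.52, against -1.66 for all tested names and -1.94 for names on other microRNA hairpins, and 13 of the 59 lay above the median of all names. With edgeR on library totals 57 of 57 let-7 names were lower, against 99% of all names, and with each locus value apart in limma 67 of 67, against 99.4%. With TMM factors the let-7 median was -0.36 and that of all names -0.02. The pseudocount of 1 RPM shrinks the fold changes of rare names, and with 0.1 RPM the medians were -3.02 for let-7 and -2.66 for all names.

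Among the 22-nt forms of the shRNA table, let-7g stood highest in every library and had the smallest decrease per library total, and with TMM factors it stood above 0, at 0.85. Its name piR-mmu-10842452 had 2125 and 3430 RPM in the negative-control shRNA libraries and 1143 and 362 RPM with the Hsp90aa1 shRNA. Both Hsp90aa1 libraries lay below both others and far apart from each other, and the log2 fold change was -2.07 ± 0.84 (SE, n = 2; limma, adjusted p = 0.035). The call is lost without negative-control shRNA A (adjusted p = 0.18), without negative-control shRNA B (0.28) and without Hsp90aa1 shRNA B (0.11). At its let-7a locus the same name had 1455 and 2427 RPM against 454 and 135 RPM, a log2 fold change of -2.92 (limma on each locus value, adjusted p = 0.0068). At its let-7f locus it had 1531 and 2279 RPM against 308 and 132 RPM, a log2 fold change of -3.21 (limma on each locus value, adjusted p = 0.0029). The let-7i form piR-mmu-48791020 had 1057 and 1608 RPM against 296 and 118 RPM, a log2 fold change of -2.79 (limma, adjusted p = 0.0055), which did not pass without negative-control shRNA A (adjusted p = 0.059) or B (0.083). In each of these names, library B had the higher value of the negative-control pair and the lower value of the Hsp90aa1 pair.

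Most of the rarer members had larger decreases on this scale. let-7b at 22 nt, piR-mmu-48715203, had 124 and 214 RPM in the negative-control shRNA libraries and 24.8 and 10.2 RPM with the Hsp90aa1 shRNA, a log2 fold change of -3.27 ± 0.65 (SE, n = 2; limma, adjusted p = 0.0014). Its 23-nt form piR-mmu-10903282 had 81.6 and 145 RPM against 8.98 and 3.23 RPM, a log2 fold change of -4.08 ± 0.63 (SE, n = 2; limma, adjusted p = 6.5e-04), the largest fall of any let-7 name on the log2(RPM + 1) scale. Without the pseudocount its group means differed 18.5-fold, and those of the 25-nt form piR-mmu-10891423, with 6 and 2 reads in the Hsp90aa1 libraries, 30.1-fold. let-7e at 22 nt had 20.1 and 30.3 RPM against 2.25 and 1.02 RPM, or 195 and 406 reads against 30 and 11. This was 15.5-fold lower in the mean RPM, with a log2 fold change of -3.33 (limma on each locus value, adjusted p = 6.2e-04). let-7d at 22 nt, piR-mmu-10884975, had 76.1 and 138 RPM against 24.2 and 7.75 RPM, a log2 fold change of -2.80 (limma, adjusted p = 0.0034). let-7b and let-7e thus had the largest decreases at 22 nt per library total in this comparison, and of the 4 sequences listed at 22 nt under MC-LR they had the largest there too, but both tables list names selected for change.

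The 3p strands are the passenger side of the hairpins. With the shRNAs, 3 listed names lay on let-7d-3p and 2 on the 3p strand that let-7a-1 and let-7c-2 share. For the most abundant let-7d-3p name (piR-mmu-48836825) the values were 8.24 and 17.0 RPM in the negative-control shRNA libraries and 3.97 and 0.739 RPM with the Hsp90aa1 shRNA. As a share of the 22-nt 5p strand this was 10.8% and 12.3% against 16.4% and 9.52%, which overlap. The 22-nt 3p name of let-7a-1 and let-7c-2, piR-mmu-49935541, had 17.9 and 26.2 RPM against 7.19 and 2.12 RPM, and it stood at 1.23% and 1.08% of the let-7a 5p level at 22 nt against 1.58% and 1.57% (exact two-sided permutation test, p = 0.33, the smallest possible with 2 libraries against 2). All 5 names on 3p arms were lower with the Hsp90aa1 shRNA per library total (background 99.5%), and with TMM factors none of the 4 that were tested passed.

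The listed let-7 names were summed, each counted once at its most abundant let-7 locus. They held 9461 and 6224 RPM in the controls and 5083 and 4421 RPM under MC-LR, 1.65-fold lower in the mean. In this sum let-7a and let-7c both count at lengths where each has a name, and the 22-nt let-7a and let-7f values that share a name with let-7g do not. The same libraries gave let-7 a larger share of the listed RPM: 2.48% and 1.76% in the controls and 4.08% and 3.77% under MC-LR, 1.85-fold higher in the mean. Both changes separate the groups and neither can be tested below p = 0.33 (exact two-sided permutation test, n = 2 per group). With the negative-control shRNA the sum was 8679 and 14633 RPM, and with the Hsp90aa1 shRNA it was 2995 and 1033 RPM, 5.79-fold lower in the mean (log2 ratio -2.53, or -3.50 without Hsp90aa1 shRNA A). The share of the listed RPM was 3.12% and 4.50% against 6.01% and 3.25%, which overlap (exact two-sided permutation test, p = 0.67). Under MC-LR the listed let-7 names were therefore lower per library total and higher as a share of the listed fragments. The listed total was itself 3.03-fold lower, so any part that fell less gains share. The let-7 sum holds 22-nt let-7c and 21-nt let-7a values, 1.47-fold and 1.18-fold lower, of names that changed more at let-7e. The share describes the selected list and is no separate support. Neither measure covers the 22-nt forms of let-7a, let-7f, let-7g and let-7i, which have no listed name under MC-LR. With the Hsp90aa1 shRNA the share did not separate the groups, and without Hsp90aa1 shRNA A its log2 ratio turns from 0.28 to -0.23.

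The makeup of the family does not depend on how libraries are scaled, so it was compared within each library at a single length, counting let-7a and let-7c once. At 22 nt in the shRNA table, which lists all members at this length, let-7g made up 33.3% and 33.9% of the let-7 5p RPM in the negative-control shRNA libraries and 50.8% and 47.3% with the Hsp90aa1 shRNA. The 95% Wilson intervals, which cover counting error only, ran from 32.9% to 34.1% over the negative-control libraries and from 46.2% to 51.3% over the Hsp90aa1 libraries. let-7f went the other way, with 24.0% and 22.5% against 13.7% and 17.2%. let-7a and let-7c together had 22.8% and 24.0% against 20.2% and 17.6%. let-7b had 1.95% and 2.11% against 1.10% and 1.34%, and let-7e had 0.314% and 0.300% against 0.0997% and 0.133%. let-7i (16.6% and 15.9% against 13.1% and 15.4%) and let-7d (1.19% and 1.37% against 1.07% and 1.01%) were also lower in both Hsp90aa1 libraries. let-7g was the 1 member with a larger share in both Hsp90aa1 libraries, and since shares sum to 100% its increase lowers the others. Without let-7g, let-7f (35.9% and 34.0% against 27.7% and 32.6%), let-7b (2.92% and 3.20% against 2.24% and 2.54%) and let-7e still had smaller shares in both Hsp90aa1 libraries, let-7i had larger ones (24.8% and 24.0% against 26.7% and 29.3%), and let-7d and let-7a with let-7c overlapped. Each difference without overlap has an exact permutation p of 0.33, the smallest possible here.

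Under MC-LR the makeup was compared at 23 nt, the length at which every member but let-7d is listed. let-7b had 12.8% and 12.8% of the 23-nt let-7 RPM in the controls and 9.52% and 9.41% under MC-LR, the clearest separation relative to the spread. let-7a and let-7c together had 29.7% and 29.6% against 31.0% and 32.3%, and let-7i had 22.3% and 22.7% against 21.2% and 20.5%. let-7g had 15.1% and 14.6% against 15.1% and 18.5%, a higher share that rests on MC-LR B. let-7e had 0.883% and 1.12% against 0.863% and 0.653%, and let-7f had 19.3% and 19.3% against 22.4% and 18.7%, which overlap. In both comparisons the shares of let-7b, let-7e and let-7i were lower and that of let-7g higher without overlap of the library values. Under MC-LR, of these members only let-7b was also apart in its Wilson intervals. For control A and MC-LR A the intervals were 0.796% to 0.980% and 0.675% to 1.10% for let-7e. They were 14.7% to 15.4% and 14.3% to 16.0% for let-7g, and 21.9% to 22.7% and 20.2% to 22.1% for let-7i. With the shRNA, let-7i had larger shares once let-7g was left out. The lengths differ and the comparisons were not tested against each other.

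**Figure D2:**
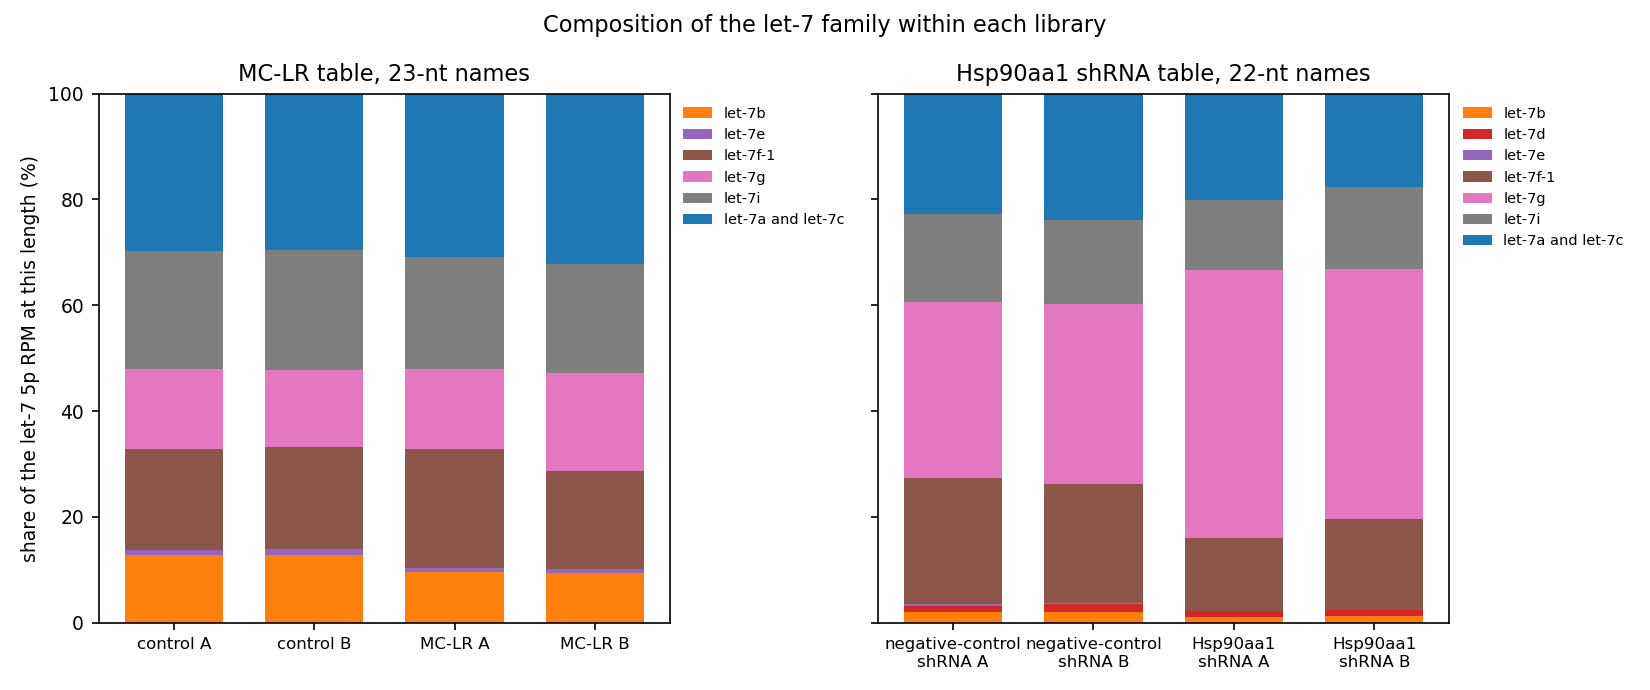
Share (%) of each let-7 member in the summed let-7 5p RPM of a single length, for each library: 23 nt in the MC-LR table and 22 nt in the shRNA table, with let-7a and let-7c counted once. let-7g takes 33.3% and 33.9% in the negative-control shRNA libraries and 50.8% and 47.3% with the Hsp90aa1 shRNA, and let-7b takes 12.8% in both controls and 9.52% and 9.41% under MC-LR.

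The let-7 names ran from 19 to 26 nt (median 23) in the MC-LR table and from 18 to 30 nt (median 22) in the shRNA table, mostly with a shared 5′ end and different 3′ ends. Under MC-LR the summed 5p level at 21 nt was 1.20-fold lower, at 22 nt 1.54-fold, at 23 nt 1.93-fold, at 24 nt 2.19-fold and at 25 nt 2.73-fold lower. From 21 to 25 nt the decrease of the listed names per library total was thus larger at each length. It was 1.29-fold at 19 nt and 2.101-fold at 26 nt, each outside that order. Single members also broke it. From 23 to 24 nt the log2 ratio of group means went from -0.87 to -0.83 for let-7f and from -1.33 to -1.04 for let-7e. From 24 to 25 nt it went from -1.27 to -1.07 for let-7i. With the Hsp90aa1 shRNA the 22-nt forms stood at 5.66-fold lower, the 21-nt forms at 6.50-fold and the 23-nt forms at 7.59-fold. The decrease was larger at 18 nt (10.1-fold), 19 nt (10.4-fold), 20 nt (11.5-fold), 24 nt (9.88-fold) and 25 nt (14.8-fold). It was smallest for the single 30-nt name, piR-mmu-517733 on let-7a-1, at 3.66-fold. At 25 nt the Hsp90aa1 means summed to 1.49 RPM and each was under the filter of 1 RPM. These names were tested only through their negative-control shRNA level, as were some at 18, 19, 20 and 24 nt, so the larger decreases there are no separate support. The sums by length pool different members. Under MC-LR the largest values at 21 and 22 nt were those of let-7a (1.18-fold lower) and let-7c (1.47-fold lower). Their names differed more at let-7e, 2.16-fold and 2.32-fold, and all listed names differ at least 1.5-fold at some locus. The listing therefore bears on the order under MC-LR, and whether the order holds beyond the listed names was not tested.

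**Figure D3:**
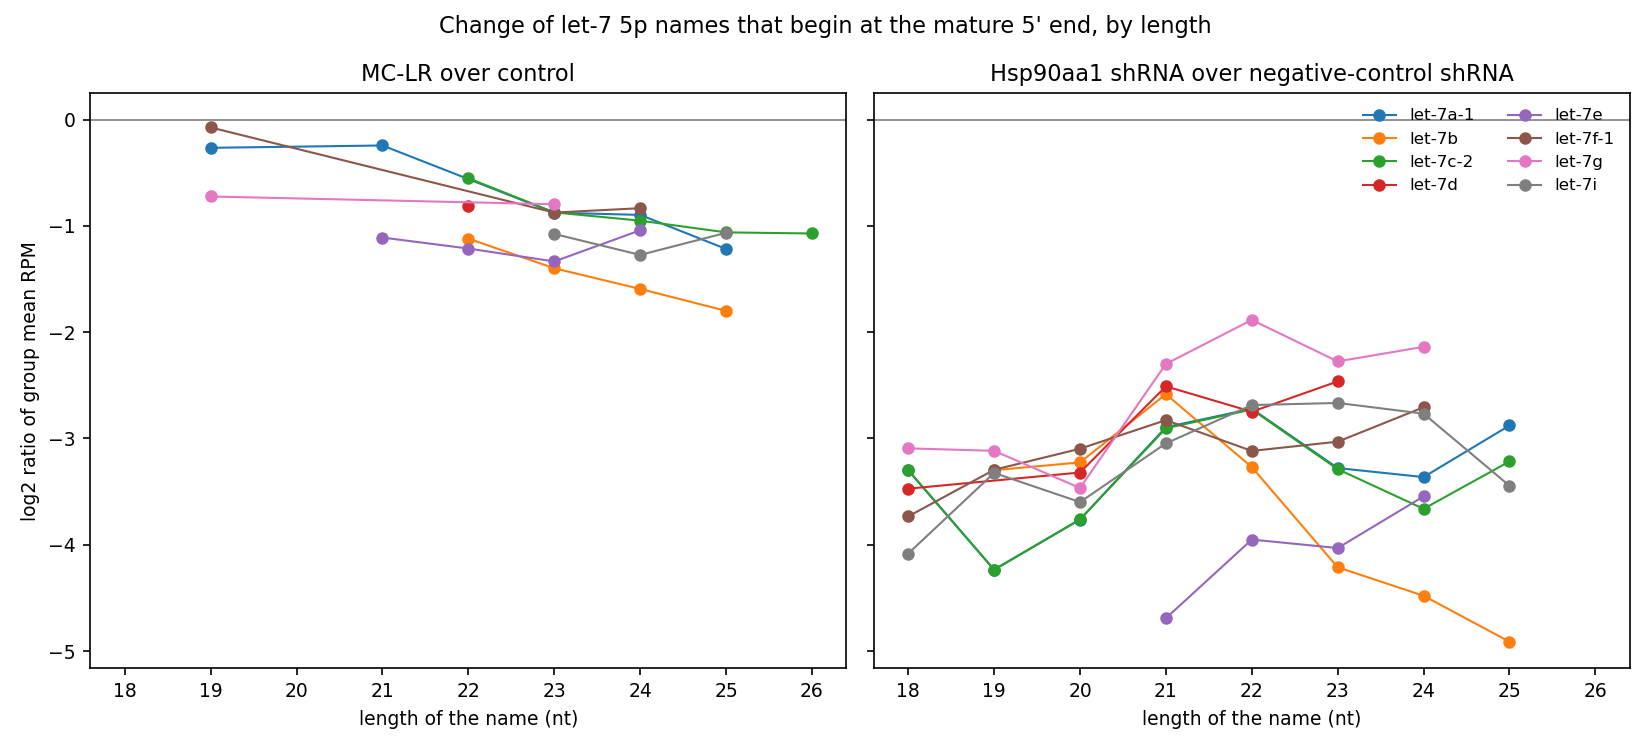
Log2 ratio of the group mean RPM (second group over first, per library total, no pseudocount) against fragment length (18 to 26 nt) for let-7 5p names that begin at the mature 5′ end, 1 line per hairpin. let-7b falls steadily from 22 to 25 nt in both panels. With the Hsp90aa1 shRNA let-7g at 22 nt has the smallest decrease plotted, at -1.88. TMM scaling, which sets let-7 against the other listed names, called no let-7 name lower in either comparison.

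The ratio of 2 lengths within a library removes the library scale. For let-7b the 23-nt form, which ends 1 base later than the mature sequence, stood at 0.676 and 0.723 of the 22-nt form in the controls and at 0.535 and 0.619 under MC-LR. With the negative-control shRNA the same ratio was 0.656 and 0.676, and with the Hsp90aa1 shRNA it was 0.361 and 0.315. All 4 control and negative-control libraries lay above the other 4. The 25-nt form of let-7b stood at 0.0461 and 0.0664 of the 22-nt form in the controls against 0.0362 and 0.0309 under MC-LR, and at 0.0729 and 0.0468 against 0.0181 and 0.0180 in the shRNA groups, the last 2 from 6 and 2 reads.

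The let-7c ratio of 23 to 22 nt was 0.208 and 0.243 in the controls and 0.160 and 0.197 under MC-LR. In the shRNA table it was 0.216 and 0.206 against 0.136 and 0.163. The groups are separate in both tables. For let-7a under MC-LR the 23-nt form was set against the 21-nt form, at 1.02 and 1.25 in the controls and 0.675 and 0.753 under MC-LR, again separate. The listed names were selected for change, which bears on these MC-LR ratios too. For let-7g with the shRNA the ratio of 23 to 22 nt was 0.124 and 0.110 against 0.0841 and 0.1003.

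Not every member shared this pattern. With the Hsp90aa1 shRNA the ratio of 23 to 22 nt was lower without overlap in 4 hairpins (let-7a, let-7b, let-7c and let-7g) and overlapped in 4 (let-7d, let-7e, let-7f and let-7i). let-7a and let-7c held nearly the same values at both lengths, so they do not count as separate members here. For let-7f it was 0.118 and 0.106 against 0.119 and 0.116, and for let-7i 0.295 and 0.268 against 0.265 and 0.327. Under MC-LR let-7e overlapped as well, at 0.303 and 0.401 against 0.342 and 0.284. Shorter ends did not behave alike either: in the shRNA table the 21-nt form of let-7b stood at 0.202 and 0.248 of the 22-nt form against 0.358 and 0.405, while that of let-7g stood at 0.217 and 0.255 against 0.179 and 0.185. Each of these differences has an exact permutation p of at least 0.33 with 2 libraries against 2. Whether the extra 3′ bases were cut from the hairpin or added later was not tested.

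**Figure D4:**
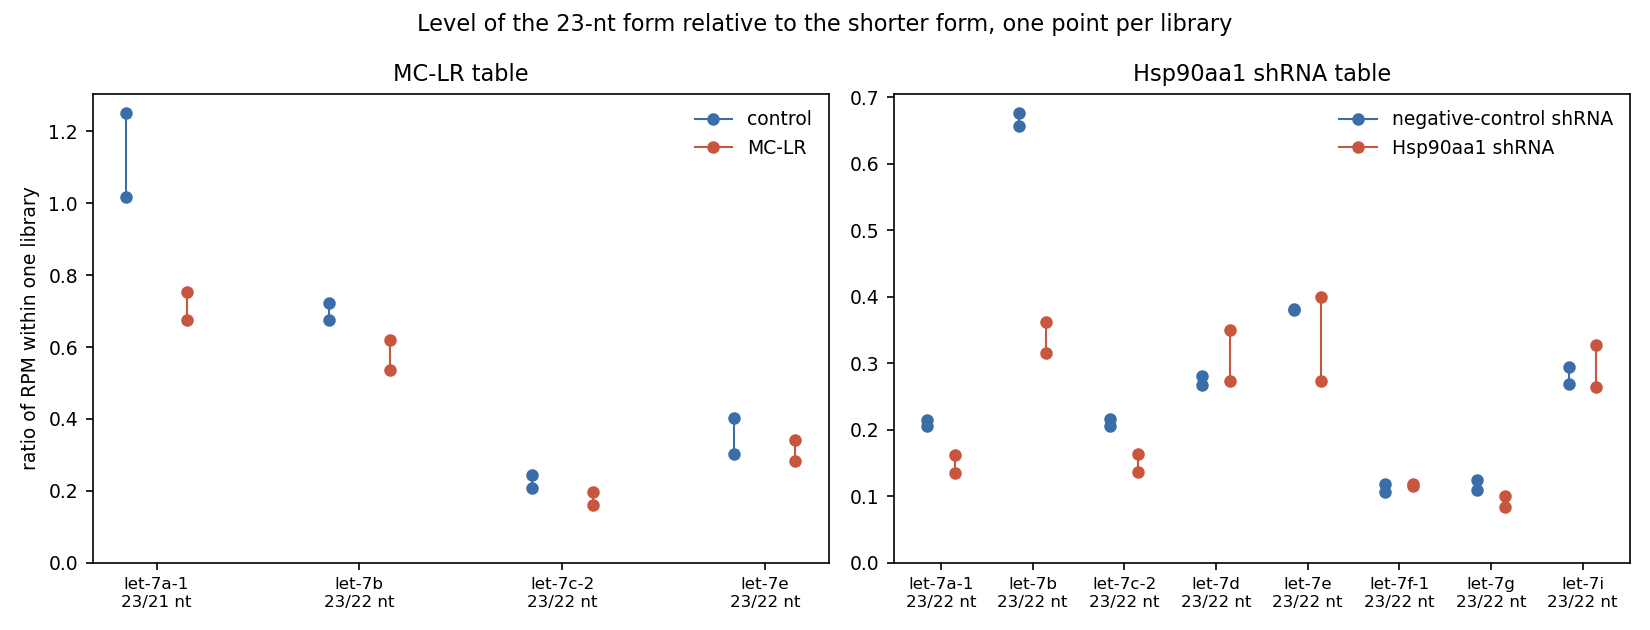
RPM of the 23-nt form divided by that of the 22-nt form of the same hairpin (the 21-nt form for let-7a in the MC-LR table) within each library; each point is 1 library and a line joins the 2 libraries of a group. For let-7b the ratio is 0.676 and 0.723 in the controls, 0.535 and 0.619 under MC-LR, 0.656 and 0.676 in the negative-control shRNA libraries and 0.361 and 0.315 with the Hsp90aa1 shRNA.

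Of the let-7 names, 8 began 1 base away from the mature 5′ end, 4 in the MC-LR table and 5 in the shRNA table. The 4 of the MC-LR table are shown because such a shift moves the seed; capitals mark bases 2 to 8.
piR-mmu-49633977 (let-7g, 1 base earlier): cUGAGGUAguaguuuguacaguu
piR-mmu-49079423 (let-7g, 1 base later): gAGGUAGUaguuuguacaguu
piR-mmu-49297478 (let-7d, 1 base earlier): aAGAGGUAguagguugcauagu
piR-mmu-48967584 (let-7c-1, 1 base earlier): uUGAGGUAguagguuguaugguu
The let-7g form that starts 1 base earlier was the most abundant of them, with 18.2 and 13.1 RPM in the controls and 9.43 and 9.30 RPM under MC-LR. It held 4.40% and 4.61% of the 23-nt let-7g level in the controls and 5.08% and 4.31% under MC-LR, which overlap, and it did not pass (limma, adjusted p = 0.093). In the shRNA table it had 10.2 and 13.2 RPM against 3.67 and 2.77 RPM (log2 fold change -1.59; limma, adjusted p = 0.0055), at 0.321% to 0.765% of the 22-nt let-7g level over the 4 libraries, and the groups overlap in this share. The form that starts 1 base later had 2.39 and 1.61 RPM against 0.842 and 1.37 RPM under MC-LR, from 5 to 35 reads. The let-7c-1 form was the 1 of these 4 that passed under MC-LR, with 3.89 and 1.81 RPM against 1.51 and 0.305 RPM (log2 fold change -1.03; limma, adjusted p = 0.045), from 57 and 9 reads against 9 and 2. Its MC-LR mean of 0.910 RPM was under the filter of 1 RPM, so it was tested only through its control level. The let-7d form had 1.09 and 1.01 RPM against 0.337 and 0.305 RPM, which is 2 reads in each MC-LR library and too few to rank. let-7 with its seed moved was therefore rare beside let-7 with the mature 5′ end.

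Genes of the same family outside the 9 hairpins were Mirlet7a-2, Mirlet7f-2, Mir98 and the let-7j and let-7k genes. Per library total, all 4 of their further names in the MC-LR table were lower (median log2 fold change -0.99), against 73.1% of all names. In the shRNA table all 7 were lower (median -2.24), against 99.5%. The medians with TMM factors were 0.67 and -0.26. These names lay on Mirlet7a-2, Mirlet7f-2 and Mir98 and are not all separate evidence. The 23-nt Mirlet7f-2 name piR-mmu-48758427 had 528 and 377 RPM in the controls and 275 and 218 RPM under MC-LR. Those are nearly the values of the let-7f name piR-mmu-33727897. Mir98, which shares the let-7 seed, had 49.5 and 34.9 RPM in the controls and 17.2 and 20.0 RPM under MC-LR (piR-mmu-48736512, log2 fold change -1.12; limma, adjusted p = 0.017).

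Several let-7 genes are transcribed together with the Mir99, Mir100 and Mir125 genes, which do not carry the let-7 seed. Of 23 names on these neighbours 21 were lower under MC-LR and none higher (median log2 fold change -1.32), and with the Hsp90aa1 shRNA 26 of 26 were lower (median -3.37), against 73.1% and 99.5% of all names. The medians were -0.85 and -2.52 for let-7 and -1.17 and -1.66 for all names. With TMM factors the neighbours' medians were 0.26 and -1.08. The mature Mir125a name piR-mmu-48791142, whose gene lies beside let-7e on chromosome 17, had 372 and 215 RPM in the controls and 61.9 and 71.2 RPM under MC-LR (log2 fold change -2.07; limma, adjusted p = 0.0012). In the shRNA table it had 117 and 199 RPM against 9.58 and 4.34 RPM (log2 fold change -4.36; limma, adjusted p = 5.9e-04). Mir99a, whose gene lies beside let-7c-1 on chromosome 16, had 1115 and 548 RPM against 438 and 381 RPM under MC-LR (piR-mmu-48755583, log2 fold change -0.93; limma, adjusted p = 0.0496). In the shRNA table it had 359 and 693 RPM against 72.9 and 15.3 RPM (log2 fold change -3.85; limma, adjusted p = 0.0018). Names on all other microRNA hairpins were lower in 308 of 465 and higher in 1 under MC-LR, and lower in 1052 of 1057 with the shRNA.

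Of 121 names on other microRNA genes in both tables with a mean of at least 10 RPM, the 3 whose levels over the 8 libraries lay nearest to the summed let-7 level were those of Mir26a-1 (piR-mmu-10835727), Mir143 (piR-mmu-37690755) and Mir27b (piR-mmu-48920142). Their root mean square distances were 0.28, 0.36 and 0.36 on the log2(RPM + 1) scale centred on each name's mean, against a median of 0.79 over the 121 names. The Mir26a-1 name had 132 and 104 RPM in the controls, 63.8 and 76.1 RPM under MC-LR, 108 and 147 RPM in the negative-control shRNA libraries and 30.3 and 15.5 RPM with the Hsp90aa1 shRNA.

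let-7 is made in nearly all tissues, so markers of the cells a sperm preparation could hold were read beside it. The counts below stand against 73.1% of all tested names lower under MC-LR and 99.5% with the Hsp90aa1 shRNA (limma). The sum of all listed names was 3.03-fold lower under MC-LR. Names on the epithelial Mir200 family (Mir200a, Mir200b, Mir200c, Mir141 and Mir429) summed to 6388 and 4690 RPM in the controls and 2408 and 2490 RPM under MC-LR, with 18 of 21 names lower. In the shRNA table they summed to 2591 and 3801 RPM against 399 and 110 RPM, with 27 of 27 lower. This was a 12.5-fold decrease, against 5.79-fold for let-7 and 7.39-fold for all listed names. Names on the smooth muscle genes Mir143 and Mir145a summed to 297 and 219 RPM against 108 and 133 RPM under MC-LR, with 5 of 8 lower, and to 3682 and 7180 RPM against 1023 and 219 RPM with the shRNA, with 22 of 22 lower. Names on blood cell genes (Mir142, Mir223, Mir451a and Mir144) summed to 22.8 and 21.97 RPM against 8.58 and 13.4 RPM, with 2 of 7 lower, and to 375 and 609 RPM against 76.7 and 69.5 RPM, with 24 of 24 lower. Germ cell names (Mir34b, Mir34c and Mir449a) are listed only in the shRNA table, where they summed to 1327 and 2641 RPM against 634 and 163 RPM, with 26 of 26 lower. No name of Mir150, Mir449b, Mir449c or the liver gene Mir122 is listed in either table. The sum of every marker list with names in a table was lower in both MC-LR or both Hsp90aa1 libraries per library total, as was that of let-7, and the part of each cell type in the let-7 levels was not tested.

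Of the 24 names in both tables, 14 were lower in both comparisons, against 78.5% of the 10340 names tested in both. All 24 had a more negative log2 fold change with the Hsp90aa1 shRNA, against 71.7% of those names. The let-7 medians were -0.86 and -2.76, and those of the 10340 names -1.27 and -1.72. The tables were scaled apart and share no libraries, and the difference between the comparisons was not tested.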

How the data were processed

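The authors deposited 2 tables of RPM values, each with 4 libraries. The submitters' processing notes name mm10, HTSeq 0.6.0, HISAT2 2.1.0 and Bowtie2 2.2.3; the order of steps, trimming and the rule for listing a name were not given in the sources used here. Libraries were made with an RNA kit from Trizol RNA, per the labels' protocols. Dividing each deposited RPM value by that of 1 read gave a whole number for 100% of values (within 0.01), and so the reads and total of each library. The floor of 3 reads is worth 0.205 to 0.605 RPM; reads carry no molecular identifiers, so limits cover counting error only.

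Names on the hairpins were found by coordinates (starts printed 1-based). Each name entered once, at its most abundant let-7 locus. Each table was fitted alone with limma 3.58.1 (trend, robust; R 4.3.3) on log2(RPM + 1), leaving out names with a mean under 1 RPM in both groups, with Benjamini-Hochberg adjustment at 0.05 over all names; the scripts were tested on simulated data. A fold change on this scale understates that of rare names. Alternatives used edgeR 4.0.16 and DESeq2 1.42.0 on the recovered reads, another pseudocount, no filter, replicate letters and left-out libraries. On library totals edgeR called 9658 of 11774 names lower under MC-LR and 16317 of 16477 with the shRNA. Tables were read with pandas 2.3.3. microRNA genes were matched to RefSeq GRCm38.p6 by an overlap of at least 0.5 of the locus, which found all 9 hairpins.

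The names printed were the most abundant of each hairpin arm and the largest rise and fall that passed; let-7e is given at its own locus, and isoforms beside them were chosen after their values were seen. The members and lists were chosen with earlier results of these data known. Groups and letters come from the sample titles.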

Additional observations from a re-analysis of the deposited data

How the results depend on the processing

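Scaling changes the calls. TMM and DESeq2 scale on listed names selected for change, so their calls are relative to the other listed names and do not test a shared decrease. With TMM factors or DESeq2, 0 let-7 names were lower in either comparison, where limma on library totals gave 15 and 59; at an unadjusted p under 0.05, 0 were lower and 12 (TMM) and 10 (DESeq2) higher under MC-LR, and 3 (TMM) and 2 (DESeq2) lower and 0 higher with the shRNA. Under these scalings, TMM first and DESeq2 second, the log2 fold changes under MC-LR turned to 0.63 and 0.62 (piR-mmu-10872547), 1.16 and 1.15 (piR-mmu-10879204), 0.89 and 0.88 (piR-mmu-10884975), 0.83 and 0.83 (piR-mmu-33727897), 0.59 and 0.58 (piR-mmu-48715203), 1.47 and 1.46 (piR-mmu-48723083), 0.91 and 0.90 (piR-mmu-48729510) and 1.00 and 0.99 (piR-mmu-48836825). With the shRNA they turned to 0.85 and 0.90 (piR-mmu-10842452), 0.0041 and 0.045 (piR-mmu-10879204), 0.078 and 0.12 (piR-mmu-48791020), 0.30 and 0.33 (piR-mmu-48836825) and 0.50 and 0.54 (piR-mmu-49935541), and with DESeq2 alone to 0.034 (piR-mmu-10884975).

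Leaving out 1 library at a time, 2 to 23 let-7 names were lower under MC-LR and 49 to 58 with the shRNA; piR-mmu-48723083 under MC-LR ran from -0.59 (without control B) to 0.21 (without control A). The log2 ratio of the let-7 share with the shRNA ran from -0.23 to 0.66, that under MC-LR from 0.66 to 1.15, and those of the sums from -0.99 to -0.39 and from -3.50 to -1.96. Names at 1 listed locus only gave 13 of 20 lower under MC-LR and 39 of 39 with the shRNA (76.2% and 99.4% of all such names), fewer because fewer names were tested. The replicate letters are shared between groups but no label says that they pair libraries; deviations of the same letter correlated at 0.065 and -0.61 over names. With the letters as a replicate block 13 and 56 names were lower, with crossed letters 59 with the shRNA, and piR-mmu-10842452 with the shRNA lost its call under the block (adjusted p = 0.18). Taking each distinct locus value apart, added after the data were seen, gave 19 of 34 and 67 of 67 lower. Depth limits the rare forms: the median let-7 name had 80.5 to 528 reads in the MC-LR table and 23 to 494 in the shRNA table.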
